A study of Mus musculus with 2 samples.

Results

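The 36 genes described here belong to the p53 response and to programmed cell death: the tumour suppressor gene Trp53 with its inhibitor Mdm2, a set of p53 target genes, the Bcl2 family, and the caspases with their activator and inhibitor. They were listed by symbol from what is known of the pathway. The rule used no measured value, but the members were chosen with earlier results of these data known. All 36 had probes on the array, 46 in all, out of 30011 gene names and 39429 probes. Of the 36, 35 could be tested, and each of the 35 was well above background in both groups on both arrays. Eda2r, a receptor of the tumour necrosis factor family that p53 induces, was not well above background at either of its probes in either group on either array, and no ratio is given for it.

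RNA of dissected ureters from embryos of the NMRI strain at E13.5 was compared between mutants and controls. The mutants carried Pax2-cre/+ together with Fgfr2(fl/fl) and Fgfr1(fl/?). The controls carried Fgfr2(fl/?) and Fgfr1(fl/?), and no Cre is listed for them. The labels thus list floxed alleles of both receptors in both groups. The question mark stands for a wild-type or a floxed allele, and the mutant pool held ureters of both Fgfr1 genotypes. Pax2-cre acts in the nephric duct lineage, which forms the epithelium of the ureter, and a dissected ureter also holds mesenchyme and other cells. Array 1 carried female RNA, with mutant in Cy5 and control in Cy3, and array 2 carried male RNA with the dyes exchanged. Sex and dye orientation therefore cannot be told apart. The sources used here do not give the number of embryos behind each RNA. Every p-value rests on the spread between these 2 arrays, which may be technical, and on a prior spread taken from all genes.

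p53 is a transcription factor that is kept low by the ubiquitin ligase Mdm2 and is stabilised by DNA damage and other stress. Its targets stop the cell cycle, assist repair or start death through mitochondria. In that pathway the BH3-only proteins engage the survival members of the Bcl2 family or activate the pore formers Bax and Bak1, cytochrome c leaves the mitochondrion, Apaf1 assembles the apoptosome, and caspase 9 activates the executioner caspases. FGF receptors signal through the ERK and AKT kinases, which are known to restrain several BH3-only proteins. The comparison asked whether transcripts of this machinery differed between these mutant and control ureters.

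Sequences before the starts of these genes show which of them hold the letters that p53 reads. RefSeq windows on GRCm38.p6, 250 bases before to 50 bases after an annotated start, were found for 32 of the 36 genes, in 46 windows. The p53 decamer motif, the 10-base unit of the p53 response element, is its own reverse complement, so that a search covers both strands. It was present in 11 of 46 windows (23.9%), which belong to 10 genes, and in 8.36% of all 32851 windows. The windows of Aen overlap and share the same decamer. Counted by gene, it was present in 10 of 32 genes (31.25%), against 9.55% of all 27025 genes with a window. A pair of decamers at most 13 bases apart was present in 1 of 46 windows, at the upstream start of Cdkn1a, and in 0.0731% of all windows. The letters CATG, which form the centre of some decamers and so overlap with them, also read alike on both strands and were present in 18 of 46 windows (39.1%), against 61.1% of all windows. A match describes letters and not binding, and a window without a match says nothing of p53 elsewhere in the gene. The windows of 4 genes are shown with decamers in capitals: Cdkn1a because it is the standard p53 readout, Mdm2 because it is the feedback gene, and Bax and Phlda3 because they had the lowest unadjusted p of the 35 genes.
Cdkn1a, chr17:29090729-29091028, plus strand: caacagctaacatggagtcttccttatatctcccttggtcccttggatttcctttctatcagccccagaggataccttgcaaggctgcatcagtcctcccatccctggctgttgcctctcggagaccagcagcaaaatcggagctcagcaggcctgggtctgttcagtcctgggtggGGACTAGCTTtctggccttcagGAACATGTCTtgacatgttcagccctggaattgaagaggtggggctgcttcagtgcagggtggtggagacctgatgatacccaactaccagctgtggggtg
Mdm2, chr10:117710709-117711008, minus strand: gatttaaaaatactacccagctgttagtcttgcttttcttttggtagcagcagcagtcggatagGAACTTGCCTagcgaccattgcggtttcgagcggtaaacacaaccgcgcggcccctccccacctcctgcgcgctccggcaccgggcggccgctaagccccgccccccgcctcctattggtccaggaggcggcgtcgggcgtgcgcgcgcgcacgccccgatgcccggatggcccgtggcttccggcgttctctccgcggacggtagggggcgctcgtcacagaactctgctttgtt
Bax, chr7:45466849-45467148, minus strand: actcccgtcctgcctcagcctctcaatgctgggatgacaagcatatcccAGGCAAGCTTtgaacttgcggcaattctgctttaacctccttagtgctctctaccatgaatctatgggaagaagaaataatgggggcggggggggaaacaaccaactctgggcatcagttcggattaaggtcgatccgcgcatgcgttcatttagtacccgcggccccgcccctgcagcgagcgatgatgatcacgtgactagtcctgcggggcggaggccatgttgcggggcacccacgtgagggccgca
Phlda3, chr1:135765835-135766134, plus strand: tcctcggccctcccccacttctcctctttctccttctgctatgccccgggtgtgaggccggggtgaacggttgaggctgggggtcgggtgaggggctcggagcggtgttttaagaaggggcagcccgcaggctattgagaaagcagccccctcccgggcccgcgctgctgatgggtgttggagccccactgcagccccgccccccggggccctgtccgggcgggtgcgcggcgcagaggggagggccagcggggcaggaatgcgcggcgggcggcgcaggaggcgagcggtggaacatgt
In the Cdkn1a window the decamers begin 73 and 51 bases before the start and are 12 bases apart. Only whole matches were counted. The letters tgacatgttc, which directly follow the second Cdkn1a decamer, match the motif except at their first letter and are not marked. The Mdm2 decamer begins 186 bases and the Bax decamer 201 bases before the start. The Phlda3 window has no whole decamer, but its last letters match the beginning of one. The bases after the window's end were not read, so whether they complete it is not known.

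No gene of the set passed the test. The measure is the log2 ratio of mutant over control on each array, so that a value above 0 means a higher signal in the mutant ureters, and adjusted p-values are those of limma over all 20909 tested genes. Of the 35 genes, 0 passed an adjusted p of 0.05, against 6 of all tested genes (0.0287%), and the smallest adjusted p among the 35 was 0.99997. At an unadjusted p under 0.05 there were 2 of 35, against 4.04% of all genes. Both of these were higher in the mutant, against 2.61% of all genes, and 0 were lower, against 1.43%.

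The directions of the 35 genes were mixed. Over all tested genes the ratios of the 2 arrays were not positively correlated (Pearson r = -0.024, Spearman rho = -0.13), which limits every mean and count over both arrays. Higher on both arrays were 10 of 35, against 22.1% of all tested genes, and lower on both were 6, against 21.4%. The remaining 19 had opposite signs, against 56.5%. These shares of all tested genes also stand beside the counts of each smaller group and related list below. The mean ratio was above 0 for 23 genes, against 51.5% of all genes, and below 0 for 12, against 48.5%. After median centring in place of loess, 5 were higher and 11 lower on both arrays, and the means split into 13 above and 22 below 0. The shares of all tested genes given above are those after loess and do not apply to these counts. Under that setting the median over all tested genes was -0.059 on array 1 and -0.078 on array 2, and the medians of the 35 were then -0.060 and -0.036. The median ratio of the 35 was 0.054 on array 1 and 0.066 on array 2, and that of all tested genes was -0.00051 and 0.0056. A difference of 1.5-fold or more in one direction on both arrays was seen for 0 of the 35, against 0.392% of all tested genes.

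**Figure D1:**
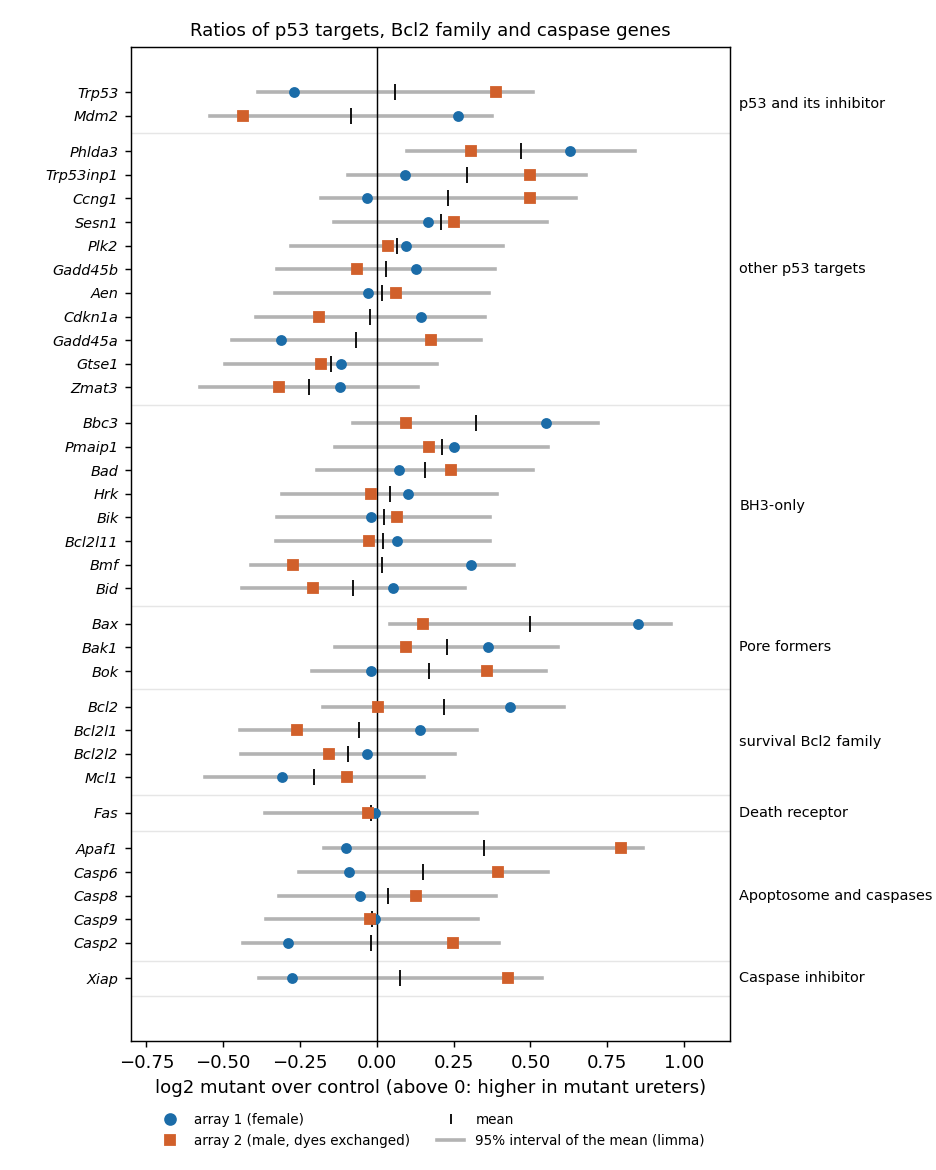
Log2 ratio of mutant over control for the 35 tested genes, in groups by role, on array 1 (circles, female) and array 2 (squares, male, dyes exchanged), with the mean (tick) and limma's 95% interval of the mean (grey bar). Only the intervals of Bax and Phlda3 lie above 0, and both genes missed the adjusted threshold.

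The precision is given here per gene, before adjustment for the number of tested genes. The SD over the spots of a probe was 0.092 at the median of these genes and arrays, and at most 0.26. The 95% interval of a gene's mean reached 0.36 to either side at the median, which is a factor of 1.29, and 0.52 at the widest. These intervals rest on 1 residual degree of freedom and a prior spread taken from all genes.

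Trp53 and Mdm2 had opposite ratios on the 2 arrays. The Trp53 signal, on a normalised log2 scale, was 9.07 and 9.84 in the mutant ureters of arrays 1 and 2, against 9.34 and 9.45 in the control ureters. The mutant values lay on both sides of the control values, with ratios of -0.27 and 0.39 and a mean of 0.060 ± 0.46 (SD, n = 2 arrays). Mdm2, which marks p53 for destruction and is itself a p53 target, was at 13.85 and 13.23 in the mutant ureters, against 13.59 and 13.67 in the control ureters. Its ratios of 0.26 and -0.43 ran the other way from those of Trp53. p53 activity is known to be set mainly at the protein level, which these arrays do not measure.

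These were 2 of 4 genes, with Xiap and Bmf, that differed by 1.2-fold or more in opposite directions on the 2 arrays, against 3.52% of all tested genes, a limit chosen after the values were seen. In a fit of Cy5 over Cy3, in which the ratio of array 2 is left unturned, the same 4 of 35 had an unadjusted p under 0.05, against 4.71% of all genes, and 0 passed the adjusted threshold. That fit reads the same values that chose the 4 genes and adds no support to their difference.

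Cdkn1a, the p21 inhibitor of cyclin-dependent kinases and the target with the paired decamers above, did not differ beyond the spread between the arrays. Its signal was 9.32 and 9.03 in the mutant ureters, against 9.18 and 9.21 in the control ureters, so the groups overlapped. The mean ratio was -0.021 ± 0.23 (SD, n = 2 arrays), with a 95% interval from -0.39 to 0.35, so that a difference above 1.28-fold in the mutant lies outside it. The other Cdkn1a probes were too dim to be tested.

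The other arrest, repair and feedback targets of p53 were led by Phlda3. With Cdkn1a there were 11 tested targets, of which 4 were higher and 2 lower on both arrays, and the medians were 0.091 and 0.062. Phlda3, a p53 target that restrains AKT by competing for membrane lipids, was at 12.76 and 12.93 in the mutant ureters, against 12.13 and 12.62 in the control ureters. Both mutant values lay above both control values. The ratios were 0.63 and 0.31, with a mean of 0.47 ± 0.23 (SD, n = 2 arrays), a 1.38-fold difference with a 95% interval from 1.07-fold to 1.79-fold. The unadjusted p was 0.0203 and limma's adjusted p was 0.99997. The Phlda3 probe lies on chromosome 1 from 137665642 to 137665701 on mm9, and the array files state no exon or UTR for a probe.

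Trp53inp1, a p53-induced stress protein that promotes death and autophagy, was at 12.17 and 12.35 in the mutant ureters, against 12.08 and 11.85 in the control ureters. Its groups did not overlap at that probe, but the dimmer Trp53inp1 probe had ratios of 0.18 and -0.039. Sesn1, a sestrin that inhibits mTORC1, was at ratios of 0.17 and 0.25, and its groups did not overlap. Plk2, a polo-like kinase of the stress response, was close to even, at 0.095 and 0.037. Zmat3, an RNA-binding p53 target, was at -0.12 and -0.32, and Gtse1, a G2 and M phase protein that limits p53, was at -0.12 and -0.18. Zmat3 and Gtse1 were the targets that were lower on both arrays.

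The remaining targets had opposite signs on the arrays. Ccng1, cyclin G1, was at -0.033 and 0.50. Gadd45a, a stress protein that acts on cell cycle kinases and MAP kinase pathways, was at -0.31 and 0.18, and its relative Gadd45b at 0.13 and -0.064. Aen, a nuclease that digests DNA during apoptosis, stayed near 0 at -0.029 and 0.062, and its second, overlapping probe gave -0.029 and 0.090.

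**Figure D2:**
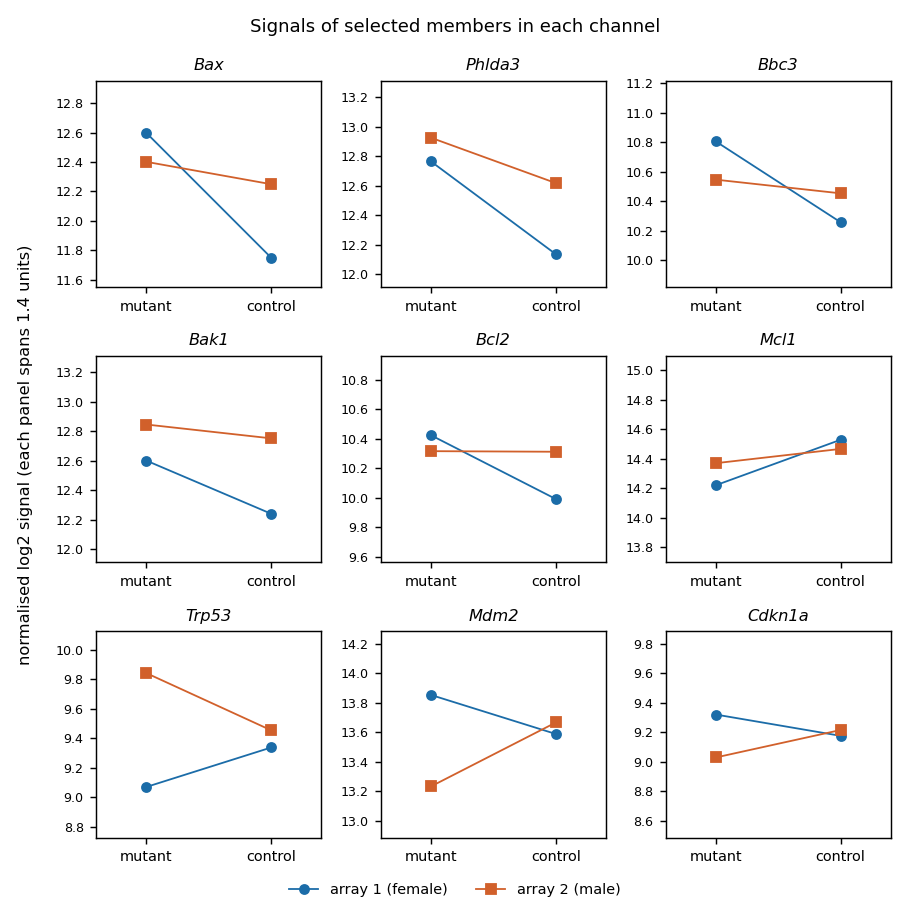
Normalised log2 signal in the mutant and the control channel of array 1 (circles, female) and array 2 (squares, male) for 9 genes, with lines joining the channels of 1 array. Each panel has its own axis of equal span, since signals of different probes are not comparable. Bax, Phlda3 and Bbc3 have both mutant values above both control values, Mcl1 has both below, and Trp53 and Mdm2 slope in opposite directions on the 2 arrays.

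Among the BH3-only genes, which sense stress and start the mitochondrial pathway, both arrays put 3 of 8 higher and 0 lower, with medians of 0.087 and 0.023. Bbc3, which encodes the p53 target PUMA, was at 10.81 and 10.55 in the mutant ureters, against 10.26 and 10.45 in the control ureters. Both mutant values lay above both control values, and the ratio was larger on array 1, at 0.55 and 0.094. Its mean of 0.32 ± 0.32 (SD, n = 2 arrays) had an unadjusted p of 0.0979 and an adjusted p of 0.99997 in limma. Pmaip1, which encodes NOXA, another p53 target, was at 0.25 and 0.17, and its mutant signals of 8.59 and 8.27 overlapped its control signals of 8.34 and 8.10. Bad, whose protein is held inactive by AKT phosphorylation, was at 0.072 and 0.24, and its dimmer probe at 0.53 and 0.34.

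The other BH3-only genes were close to even or had opposite signs. Bcl2l11 encodes BIM, which ERK signalling is known to lower, and was at 0.066 and -0.026, with a 95% interval of the mean from -0.33 to 0.37. Its second probe gave 0.013 and -0.19. Bmf, a BH3-only protein held at the cytoskeleton, was at 0.31 and -0.27. Bid, which links death receptors to mitochondria, was at 0.054 and -0.21. Bik was at -0.020 and 0.066, and Hrk, best known from neurons, at 0.10 and -0.019. The probes of Bik and Hrk were dim. With the scanner's processed signals the mean ratio of Hrk was 0.14, against 0.042 here, and that of Bik was -0.010, against 0.023 here. Whether the dim signal held the ratios of Bik and Hrk near 0 was not tested.

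The pore formers had medians of 0.36 and 0.15, with 2 of 3 genes higher on both arrays. Bax, which permeabilises the outer mitochondrial membrane, was at 12.60 and 12.40 in the mutant ureters, against 11.75 and 12.25 in the control ureters. Both mutant values lay above both control values, with a ratio of 0.85 on array 1 and only 0.15 on array 2. The mean was 0.50 ± 0.49 (SD, n = 2 arrays), a 1.41-fold difference with a 95% interval from 1.03-fold to 1.94-fold. The unadjusted p was 0.0364 and the adjusted p was 0.99997 in limma. The Bax probe lies on chromosome 7 from 52717122 to 52717181 on mm9. The summed signal of 12 erythroid markers exceeded the control by 1.42 on array 1 and 0.35 on array 2, also with the larger difference on array 1, and its part in the Bax ratio was not tested.

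Bak1, the functional partner of Bax, was at 12.60 and 12.85 in the mutant ureters, against 12.24 and 12.75 in the control ureters. The groups overlapped, with ratios of 0.36 and 0.094. Bok, a relative that acts partly outside mitochondria, was at ratios of -0.019 and 0.36, and its groups overlapped.

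The survival members of the family did not move together. Mcl1, a short-lived survival protein, was at 14.22 and 14.37 in the mutant ureters, against 14.53 and 14.47 in the control ureters. Both mutant values lay below both control values, with ratios of -0.31 and -0.098, but its dimmer probe gave -0.24 and 0.21. Bcl2l2, which encodes BCL-W, had both mutant values below both control values too, at ratios of -0.032 and -0.15. Bcl2, the founding member, was at 10.43 and 10.32 in the mutant ureters, against 9.99 and 10.31 in the control ureters. Its ratio was 0.43 on array 1 and 0.0038 on array 2, so that array 2 showed almost no difference.

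Bcl2l1, which encodes BCL-XL and is abundant in red cell precursors, had probes with opposite signs on array 1. The brighter one was at 0.14 and -0.26 and the other at -0.028 and -0.46. The Bcl2 probe and the dimmer Bcl2l1 probe are shown because these related genes gave different ratios and the letters show what each spot could capture. Each has 60 bases, with at least 1 reading frame free of stop codons, and no motif is marked.
Bcl2, chr1:108608970-108609029 on mm9, minus strand: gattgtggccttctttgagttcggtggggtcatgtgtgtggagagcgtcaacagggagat
Bcl2l1, chr2:152655185-152655244 on mm9, minus strand: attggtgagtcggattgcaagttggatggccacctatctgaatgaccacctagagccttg

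The death receptor Fas, a p53 target at the cell surface, was at ratios of -0.0062 and -0.029. Its probe was dim, at 7.6 and 7.3 in the mutant ureters, against 7.6 and 7.3 in the control ureters. With the scanner's processed signals the mean ratio of Fas was -0.089, against -0.018 here. Whether the dim signal held the Fas ratio near 0 was not tested. The apoptosome and caspase genes were below 0 on array 1 and mostly above 0 on array 2, with medians of -0.091 and 0.25. Apaf1, the scaffold of the apoptosome, was at 10.26 and 11.19 in the mutant ureters, against 10.36 and 10.39 in the control ureters. The male mutant value stood above the rest, and the mean of 0.35 ± 0.63 (SD, n = 2 arrays) was smaller than its spread. Casp6, an executioner caspase, was at -0.091 and 0.39, and Casp2, an initiator activated by the PIDDosome, was at -0.29 and 0.25. Casp8, the initiator of the death receptor pathway, was at -0.056 and 0.13. Casp9, the initiator of the mitochondrial pathway, was even, at -0.0061 and -0.023. Xiap, a direct inhibitor of caspases, was at -0.28 and 0.43, and its groups overlapped.

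**Figure D3:**
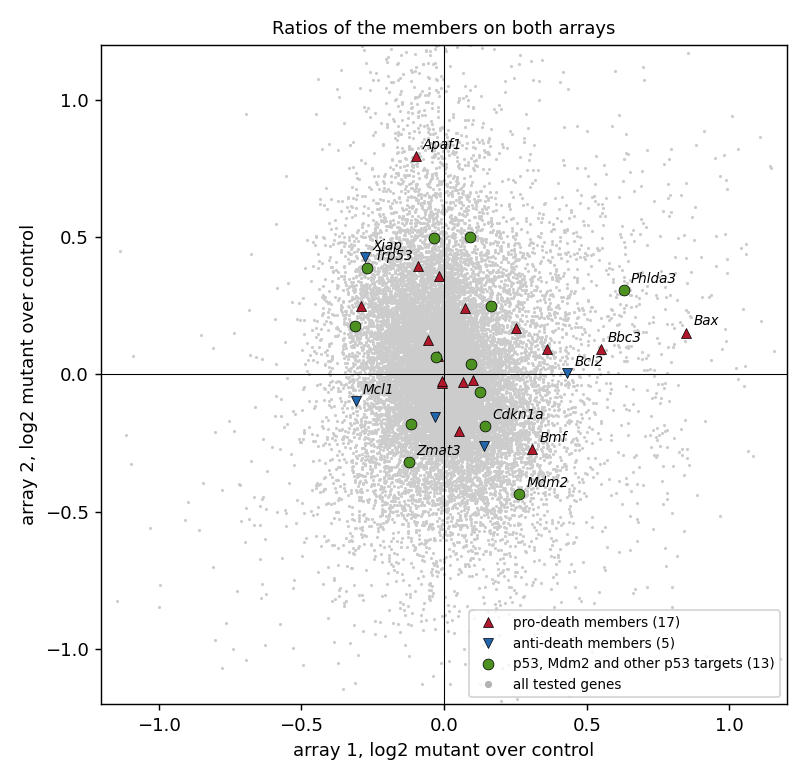
Log2 ratio of mutant over control on array 1 (horizontal axis) against array 2 (vertical axis) for all tested genes (grey) and for 17 pro-death genes (upward triangles), 5 anti-death genes (downward triangles) and 13 other genes of the p53 response (circles). The axes leave out 152 of 20909 tested genes. Bax, Phlda3 and Bbc3 lie to the right, at their array 1 ratios, and Apaf1 lies at the top, at its array 2 ratio.

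Pro-death genes were set against anti-death genes within each array. The pro-death group was the BH3-only genes, the pore formers, Fas, Apaf1 and the caspases, and the anti-death group was Bcl2, Bcl2l1, Bcl2l2, Mcl1 and Xiap. Of 17 pro-death genes, both arrays put 5 higher and 2 lower, with medians of 0.054 and 0.094. Of 5 anti-death genes, both arrays put 1 higher and 2 lower, with medians of -0.032 and -0.098. The pro-death median exceeded the anti-death median by 0.086 on array 1 and by 0.19 on array 2, a mean of 0.14 ± 0.074 (SD, n = 2 arrays). No test of this excess was made. Over the mean ratios, the median was 0.042 for the pro-death and -0.059 for the anti-death genes. After median centring these medians were -0.0080 and -0.23, and the excess was 0.22. With the mean of the probes of a gene, the excess was 0.091. On array 2 the anti-death median is the ratio of Mcl1, whose dimmer probe gave 0.21. The pro-death median of 0.042 is the ratio of Hrk, a dim probe, and was 0.13 with the scanner's processed signals.

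Single pairs of genes went both ways. The ratio of Bax exceeded that of Bcl2 by 0.42 and 0.15, and that of Bcl2l1 by 0.71 and 0.41. The ratio of Bak1 exceeded that of Mcl1 by 0.67 and 0.19, while Bcl2l11 less Bcl2 gave -0.37 and -0.030. Casp9 less Xiap gave 0.27 and -0.45.

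In the channel signals, 7 of 35 genes had both mutant values above both control values, against 12% of all tested genes, and 2 had both below, against 11.5%. The 7 were Phlda3, Trp53inp1, Sesn1, Bbc3, Bad, Bax and Bcl2, which include death-promoting and survival genes, and the 2 were Bcl2l2 and Mcl1. These counts compare signals across the arrays, which differ in sex and dye orientation, and set aside the pairing within each array. Bcl2 is among the 7 with a ratio of 0.0038 on array 2, and Pmaip1, at 0.25 and 0.17, is not. No test of these shares was made.

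Of 29 further p53 targets and regulators tested, both arrays put 9 higher and 6 lower, with 0 past the adjusted threshold and medians of 0.046 and -0.0036. Ddit4, an inhibitor of mTORC1, was at 0.46 and 0.23, and Gadd45g, a stress protein, at 0.089 and 0.41. Mdm4, the partner of Mdm2, was at -0.034 and -0.42, and Kitl, the ligand of KIT, at -0.21 and -0.24. These lie on both sides of 0.

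Of 9 further Bcl2 family genes tested, both arrays put 2 higher and 5 lower, with 0 past the adjusted threshold. Bcl2l14 was at -0.068 and -0.61 and Bcl2l15, another less studied member, at -0.34 and -0.32. Bcl2a1d, a survival gene of blood cells with near-identical copies that its probe may share, was at 0.20 and 0.23. Bnip3, a mitochondrial receptor of mitophagy, was at -0.26 and -0.062.

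Of 17 further caspases, activators and inhibitors, both arrays put 4 higher and 4 lower, with 0 past the adjusted threshold. Casp4, an inflammatory caspase found in macrophages, was at 0.30 and 0.49 (unadjusted p = 0.0329 in limma), and Casp1, another of that class, at 0.24 and 0.50 (unadjusted p = 0.0454 in limma). The medians of 12 leukocyte markers were 0.64 and 0.67, and their part in these ratios was not tested. Birc6, a large inhibitor of apoptosis, was at -0.21 and -0.22. Of 10 death receptor pathway genes tested, both arrays put 2 higher and 3 lower, with 0 past the adjusted threshold. Tnfrsf21, death receptor 6, was at -0.15 and -0.43, and Cradd, an adaptor of caspase 2, at -0.11 and -0.19. Traf2, an adaptor of tumour necrosis factor receptors, was at 0.038 and 0.23, and Fadd, the adaptor of Fas, at -0.015 and -0.17.

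**Figure D4:**
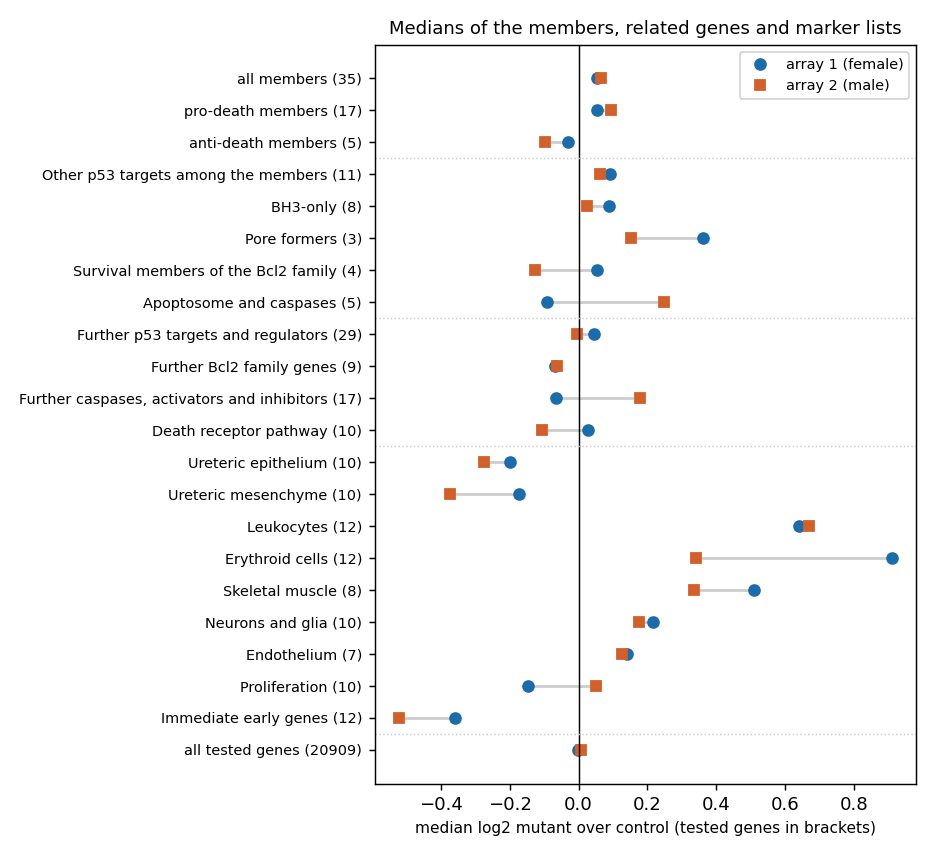
Median log2 ratio of mutant over control on array 1 (circles, female) and array 2 (squares, male) for the genes of the set, its groups by role, related genes of the pathway, markers of cell types and states, and all tested genes, with the number of tested genes in brackets. The medians of the 35 genes lie within 0.1 of 0, those of leukocyte and erythroid markers above 0.3, and those of immediate early genes below -0.3.

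Markers of cell types and states were read from the same arrays. Of the ureteric epithelium and mesenchyme markers, 10 of 10 each were well above background, with 1 higher and 5 lower, and 1 higher and 7 lower, on both arrays. In RNA of a mixed tissue, fewer cells of a type and less RNA per cell cannot be told apart. Of 12 leukocyte markers, 10 were higher and 0 lower on both arrays, 2 passed the adjusted threshold, and the summed log2 signal was 14.08 and 14.12 in the mutant ureters, against 13.28 and 13.26 in the control ureters. Of 12 erythroid markers, 10 were higher and 0 lower on both arrays, 0 passed it, and the summed signal was 19.33 and 19.20 in the mutant ureters, against 17.91 and 18.85 in the control ureters. The erythroid difference was larger on array 1. Of the genes of the set that were higher on both arrays, Phlda3, Plk2, Bbc3, Pmaip1, Bax, Bak1 and Bcl2 were further from 0 on array 1, and Trp53inp1, Sesn1 and Bad on array 2.

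Of 8 tested skeletal muscle markers, 6 were higher and 1 lower on both arrays, and Myf5 and Ckm were too dim to be tested. Of neural markers 8 of 10 were higher and 1 lower on both arrays, and of endothelial markers 5 of 7 were higher and 1 lower. Of 12 immediate early genes, both arrays put 1 higher and 10 lower, with a summed signal of 16.20 and 15.77 in the mutant ureters, against 16.65 and 16.64 in the control ureters. Proliferation markers had 0 higher and 3 lower of 10. The part of these cells and states in the ratios of the 35 genes was not tested.

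The probes of the deleted gene were not lower in the mutant ureters, with Fgfr2 ratios of 0.27 and 0.057 at the first probe, and 0.081 and 0.091 at the other. The sources used here do not say which segment was floxed, so these probes do not check the deletion. Fgfr1, the other gene with a floxed allele in the labels, had probes at 0.026 and 0.51, at 0.17 and -0.16, and at 0.27 and -0.44, which have the same sign on both arrays only at the first.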

How the data were processed

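Ureter RNA (150 ng per labelling, per the labels) was compared on 2 two-colour Agilent arrays that lay on 1 slide. The submitters' processing notes name Agilent Feature Extraction 10.7.3.1, and per the file headers the probes are annotated on mm9. Raw intensity values of spots and of their local background were used as deposited. The processed signals are intensity values that were background-subtracted, detrended and dye-normalized by LOWESS, as the file headers record. In the authors' deposited table there is a score for each probe and array, a signed linear fold. How it was centred is unknown. Its columns had a median of 1 and its log2 values correlated with ratios of the processed signals at 0.973 and 0.991, in the direction mutant over control.

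In limma 3.58.1 under R 4.3.3, background was corrected with normexp (offset 50), and loess (span 0.3) was fitted with control spots given a weight of 0. Outlier spots (3.35% and 3.05%) were left out, the 4 spots of a probe averaged and the ratio of array 2 turned. A probe was tested where the share of well-above-background spots passed 0.5 on both arrays in either group. Genes were named through RefSeq accessions of GRCm38.p6 (28328 of 39429 probes matched), and each was read from its brightest tested probe. Channel signals were taken after Aquantile normalization. Ratios were tested with lmFit and eBayes against 0 with Benjamini-Hochberg adjustment. There were 0 saturated spots, 67.8% to 77.0% of probes were well above background per group and array, and the number of arrays limits the precision. The fit was tested on simulated data. All 36 genes are accounted for, and of each related list the 4 largest mean ratios with the same sign on both arrays are named, except for a gene that is not reported here. The members, lists, groups and tests were chosen with earlier results of these data known. Alternatives were processed signals, median centring, other filters, probe means, the deposited table and single arrays.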

Additional observations from a re-analysis of the deposited data

Results flagged for a closer look

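The 4 genes that differed by 1.2-fold or more in opposite directions between array 1 (female) and array 2 (male) were Trp53, Mdm2, Xiap and Bmf. The size limit was chosen after the values were seen. The log2 ratio of mutant over control on array 1 less that on array 2 was -0.66 for Trp53, 0.70 for Mdm2, -0.70 for Xiap and 0.58 for Bmf. In the limma fit of Cy5 over Cy3 the unadjusted p was 0.0385 for Trp53, 0.036 for Mdm2, 0.0338 for Xiap and 0.0492 for Bmf, with an adjusted p of 0.747 for each. This fit uses the values by which the genes were chosen and is no independent test of them. Of all 20909 genes, 0 passed the adjusted threshold in that fit and 985 had an unadjusted p under 0.05. Sex and dye orientation cannot be told apart in these differences.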

How the results depend on the processing

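No gene of the set passed limma's adjusted threshold under the 6 alternatives that keep both arrays, with 0 to 2 at an unadjusted p under 0.05. Over these, the mean ratio of Bax lay between 0.34 and 0.50 (unadjusted p = 0.0328 to 0.157) and that of Phlda3 between 0.30 and 0.47 (unadjusted p = 0.0179 to 0.126). After median centring, 10 of 35 genes had the other sign, 5 were higher and 11 lower on both arrays, and the median over all tested genes was -0.085. No share of all tested genes was counted beside these numbers. The medians were then -0.031 for the set, -0.0080 for the pro-death and -0.23 for the anti-death genes, with a pro-death excess of 0.22. Probe means gave a pro-death excess of 0.091. With the processed signals the pro-death median was 0.13. In the authors' deposited table the median of the set was 0.055 and the pro-death median 0.15. Over all genes, limma called 11 with processed signals, 0 after median centring, 0 with no filter for dim probes and 11 where both groups had to be above background, with 1082, 850, 1076 and 850 at an unadjusted p under 0.05. The cause was not tested. With either array left out, and with no test, the median ran from 0.054 to 0.066 for the set, from 0.054 to 0.094 for the pro-death and from -0.098 to -0.032 for the anti-death genes, and the pro-death excess from 0.086 to 0.19. Array 1 alone gave 13 of 35 genes the sign opposite to their mean, and array 2 alone 6. Each array holds the mutant and control RNA of 1 replicate, so the test of the ratio against 0 is itself the paired analysis.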
